A study of Mus musculus with 18 samples.

Results

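The histone genes measured on these arrays are described here across all 6 groups of the study. Members were all genes whose only symbol on an array row was a histone name, under the current or the older nomenclature, and a gene with more than 1 row was read from the row of highest mean over the 18 arrays. Of 19938 genes measured this way, 44 were members. They comprised 31 replication-dependent genes and 13 variant genes. The replication-dependent genes were 5 of linker histone H1, 5 of H2A, 11 of H2B, 3 of H3 and 7 of H4, and the variants were 3 of H1, 9 of H2A and 1 of H3. On the mouse chromosomes, 24 members lay on chromosome 13, 5 on chromosome 3, 4 each on chromosomes 11 and 6, 2 on chromosome 15, and 1 each on chromosomes 1, 2, 9, 10 and X. Of the 44, 8 are known from germ cells (H1f6, H2ac1, H2bc1, H1f7, H1f8, H2ab1, H2al2a and Macroh2a3) and 1 is a pseudogene (H2bu1-ps).

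Replication-dependent histone genes supply the bulk of the histones that package new DNA. They lie in clusters, are transcribed mainly in S phase, and give short messenger RNAs that end in a stem-loop in place of a poly(A) tail. Variant histones come from genes outside that programme, which usually give polyadenylated messenger RNAs, and they replace the replication-dependent histones at particular sites: H2A.X marks broken DNA, H2A.Z sits at promoters, macroH2A at silent chromatin and H3.3 at active genes. Alveolar type II cells make surfactant, seldom divide in the undisturbed adult lung, and can proliferate after injury to renew the alveolar surface.

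The cells were alveolar type II cells isolated from mice 7-8 weeks old. The tested cells came from mice of genotype CCSP/rtTA/CEBPa(flx/flx), in which the gene for the transcription factor C/EBPa was deleted, and the controls came from CEBP/a(flx/flx) littermates without the rtTA or without the Cre gene. Each genotype was sampled at 0, 2 and 24 h of hyperoxia, which makes 6 groups of 3 arrays. CCSP is the Clara cell secretory protein, whose promoter is used to drive rtTA in lung epithelium. The deletion reached Clara cells early in gestation and type II cells shortly before birth, so it was present before any exposure and was not limited to type II cells. The floxed alleles were shared by both genotypes. The sample descriptions give air for all 18 samples, and exposure to hyperoxia is known only from the series design. The labels do not say that the 3 samples of a group came from separate animals, so p-values reflect sample-to-sample spread, which may be technical. In RNA from a cell preparation, fewer cells of a type and less RNA per cell cannot be told apart. The labelling followed Affymetrix protocols with biotin, and the labels do not name the primer, which bears on how messenger RNAs without a poly(A) tail were captured.

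Cebpa itself had log2 levels of 8.66, 8.26 and 8.38 in Cebpa-deleted cells and 10.45, 10.12 and 10.22 in control cells at 24 h, a log2 difference of -1.83 (adjusted p = 8.19e-06, limma). The log2 difference was -1.10 at 2 h (adjusted p = 0.00461) and -0.43 at 0 h (adjusted p = 0.429), and the position of the Cebpa row relative to the deleted part is not given. The spread of each array's values also differed between groups: the interquartile range of log2 values was 1.82 to 2.13 in the Cebpa-deleted 24 h arrays, against 2.44 to 2.52 in the control 24 h arrays. It was 2.16 to 2.55 and 2.13 to 2.38 in the Cebpa-deleted and control 2 h arrays, and 2.89 to 3.06 in the 6 arrays at 0 h. All 12 type II cell markers were measured, and their mean log2 level was 11.50 to 11.89 in Cebpa-deleted and 12.38 to 12.47 in control arrays at 24 h. The mean of 12 endothelial markers was 9.03 to 9.14 in Cebpa-deleted and 8.12 to 8.74 in control arrays at 24 h. At 0 h it averaged 9.17 ± 0.14 in Cebpa-deleted and 8.22 ± 0.17 in control arrays, and at 2 h 9.18 ± 0.52 in Cebpa-deleted and 8.15 ± 0.18 in control arrays (SD, n = 3 each). Of the same lists, 11 of 12 type II markers were lower and 11 of 12 endothelial markers higher in Cebpa-deleted cells at 24 h. The shares over all genes were 26.4% lower and 24.3% higher, or 43.8% and 12.7% among the 60% of genes of highest mean level. The part of array range and of cell composition in the histone results was not tested, beyond the fits described beside each result.

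At 24 h, 13 of the 44 histone genes were lower and 4 were higher in Cebpa-deleted than in control cells at an adjusted p below 0.05 in limma. Histone H4 genes had the most calls for their number: 4 of 7 were lower, 1 was higher, and their median log2 difference was -0.48. Among variants, H2ax, H2aj, Macroh2a1 and H2az2 were lower, and H1f8, H2ab1 and H3f3a were higher. The shares lower were close to that of all genes, and so was the share of variants higher, while fewer replication-dependent genes were higher. Of all 19938 genes, 26.4% were lower and 24.3% higher, against 9 of 31 replication-dependent genes lower (29%) and 1 higher (3.23%), and against 4 of 13 variants lower (30.8%) and 3 higher (23.1%). With each array centred on its own median, those shares over all genes were 30.4% lower and 18.1% higher. The median log2 difference was -0.15 for replication-dependent genes, 0.02 for variants and 0.05 for all genes. Without the germ cell genes and the pseudogene, 8 of 27 replication-dependent genes were lower and 1 higher, with a median of -0.17. The count of 9 lower and 1 higher replication-dependent genes became 0 with the array range as a covariate, a fit in which 4 of all genes were called, and 0 without the 2 Cebpa-deleted 24 h arrays of narrowest range, a fit that leaves 1 array in that group and so also loses its replication.

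**Figure D1:**
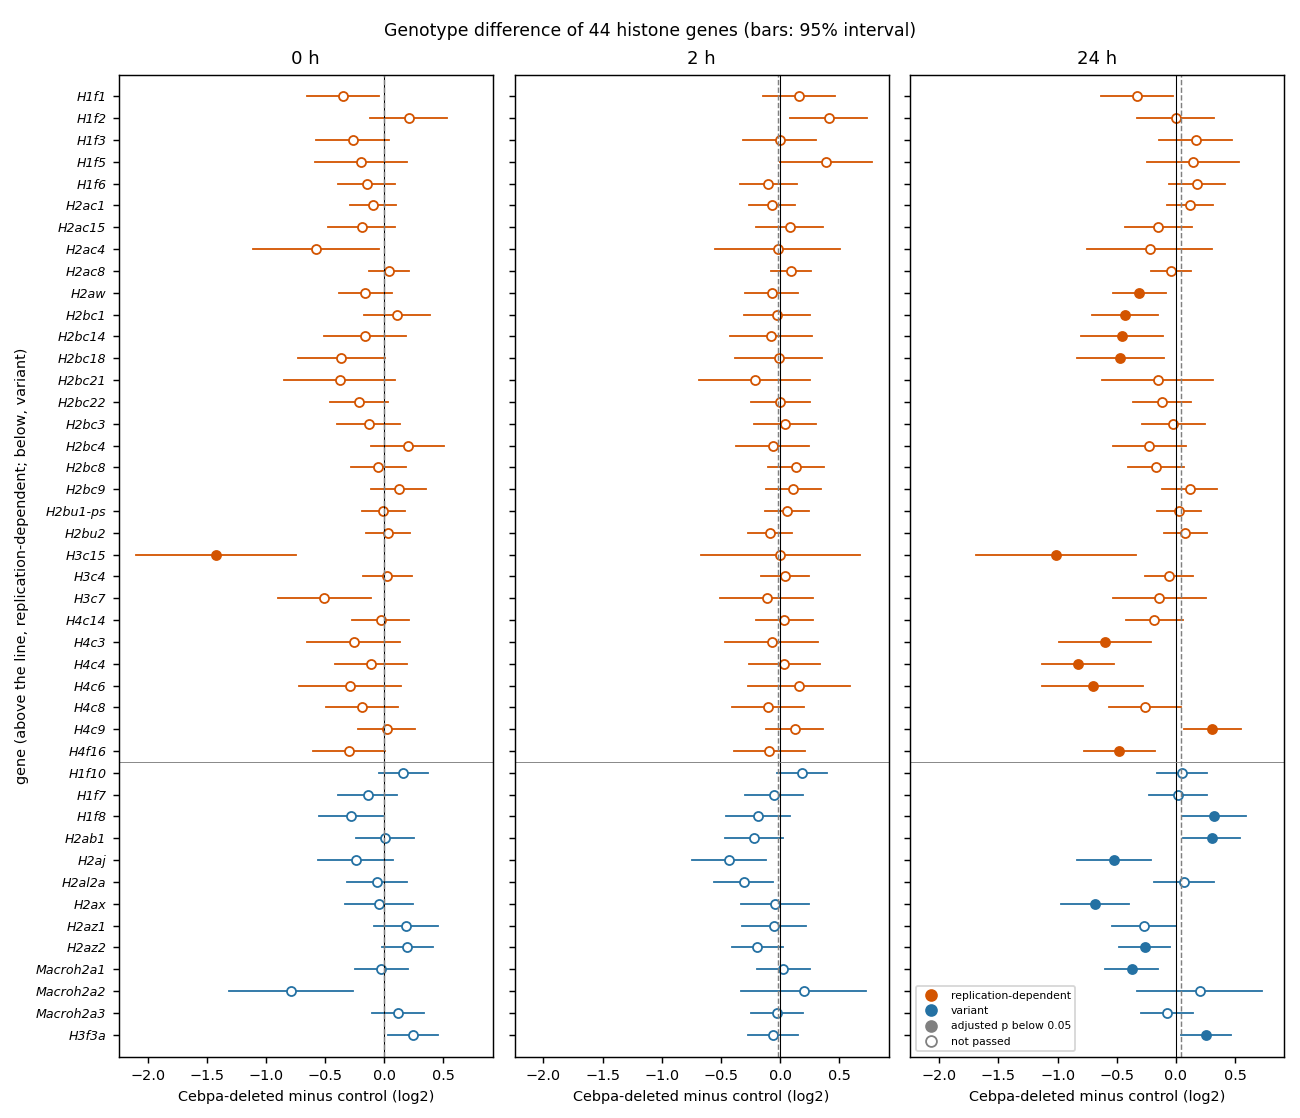
Log2 difference, Cebpa-deleted minus control, for each of the 44 histone genes at 0, 2 and 24 h, with 95% intervals; filled points had an adjusted p below 0.05 and the dashed line is the median of all genes. At 0 h only H3c15 is filled, at 2 h no gene is, and at 24 h 17 are, with H3c15, H4c4 and H4c6 furthest to the left.

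Histone H4 is the partner of H3 in the tetramer at the core of the nucleosome, and its genes encode nearly the same protein. H4c4 (older name Hist1h4d) had the smallest adjusted p of the 44 members at 24 h. Its log2 levels were 8.05, 7.72 and 8.39 in Cebpa-deleted cells, against 8.93, 8.78 and 8.93 in control cells. All 3 Cebpa-deleted arrays lay below all 3 control arrays. This was a log2 difference of -0.83 ± 0.14 (SE, n = 3 each, limma, adjusted p = 0.000496), so the Cebpa-deleted level was 56.4% of the control level. H4c6 (Hist1h4f) had log2 levels of 7.27, 6.46 and 6.88 in Cebpa-deleted cells, against 7.71, 7.22 and 7.80 in control cells. The highest Cebpa-deleted array stood just above the lowest control array. Its log2 difference was -0.70 ± 0.21 (adjusted p = 0.0101), or 61.4% of the control level, and the call ended without Cebpa-deleted 24 h replicate 2 (adjusted p = 0.0745).

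H4c3 (Hist1h4c) had log2 levels of 5.80, 6.10 and 6.49 in Cebpa-deleted cells at 24 h, against 6.83, 6.66 and 6.70 in control cells. The groups did not overlap, as in 30.4% of all genes with the Cebpa-deleted arrays below. H4c3 had a log2 difference of -0.60 ± 0.19 (adjusted p = 0.0138), and the call ended without control 24 h replicate 1 or without Cebpa-deleted 24 h replicate 1 (adjusted p up to 0.0858). H4f16 (Hist4h4), on chromosome 6 and outside the large clusters, had log2 levels of 7.36, 6.99 and 7.62 in Cebpa-deleted cells, against 7.82, 7.65 and 7.93 in control cells. These did not overlap either. H4f16 had a log2 difference of -0.48 ± 0.14 (adjusted p = 0.0116), and the call ended without Cebpa-deleted 24 h replicate 2 (adjusted p = 0.0878). H4c9 (Hist1h4i) went the other way, with log2 levels of 6.69, 6.99 and 6.49 in Cebpa-deleted cells, against 6.41, 6.36 and 6.47 in control cells. The lowest Cebpa-deleted array was just above the highest control array. Its log2 difference was 0.31 ± 0.12 (adjusted p = 0.0337), and the call was lost when any of control 24 h replicates 1 and 2 or Cebpa-deleted 24 h replicates 1 and 2 was left out (adjusted p up to 0.219). H4c8 (Hist1h4h) and H4c14 (Hist2h4) did not pass the test, with log2 differences of -0.26 (adjusted p = 0.138) and -0.18 (adjusted p = 0.182). Of the 5 called H4 genes, H4c4 kept its call in all 6 fits that left out 1 array of the comparison.

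**Figure D2:**
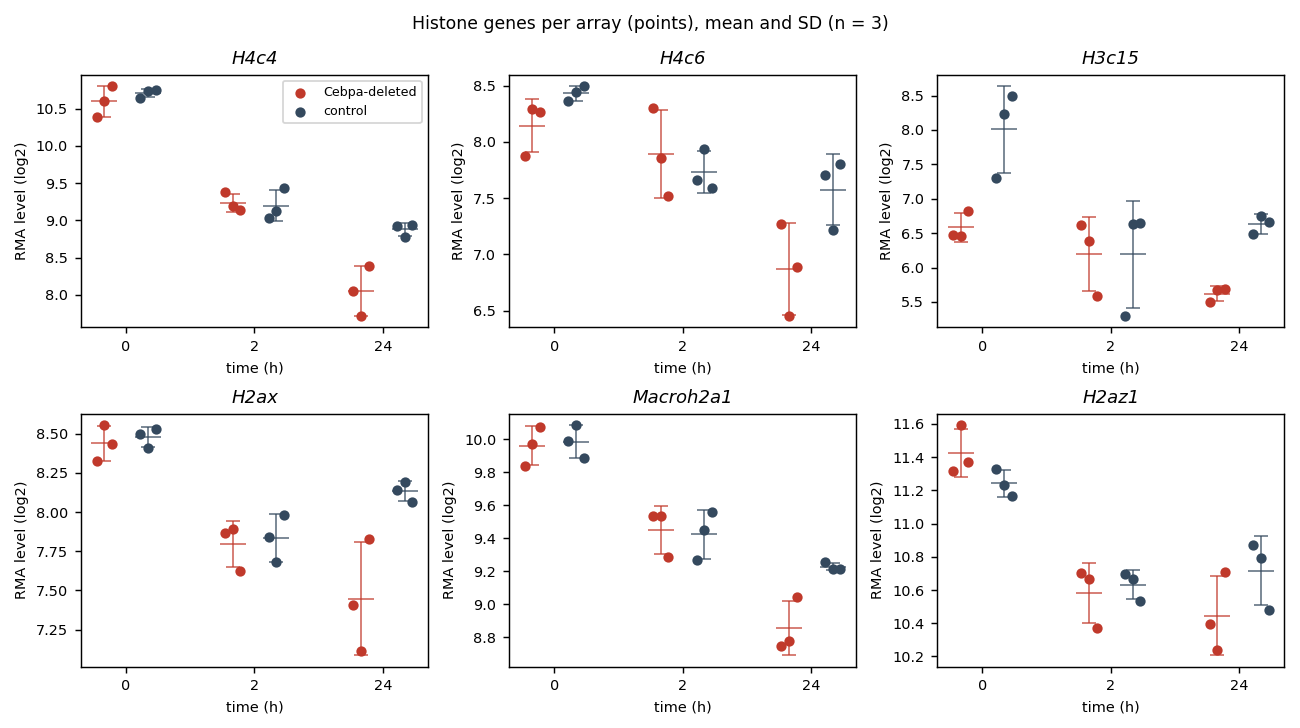
Log2 level in every array for H4c4, H4c6, H3c15, H2ax, Macroh2a1 and H2az1, by genotype and time, with the mean and SD of each group of 3 arrays. At 24 h the Cebpa-deleted arrays of H4c4, H3c15, H2ax and Macroh2a1 lie below the control arrays, and those of H4c6 and H2az1 overlap them.

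The promoters of the H4 genes are shown because these genes had the largest share of calls, and those of 2 called H2B genes are shown beside them. Of the 44 members, 37 had a promoter in the RefSeq table of build GRCm38.p6, which gives 250 bases before to 50 bases after the transcription start. The letters GGTCCG, on either strand, stood in all 6 H4 promoters of the table, against 8.25% of its 32851 windows of 300 bases. They also stood in 4 of 11 variant promoters, 1 of 8 H2B promoters and no other replication-dependent promoter of the table. They were chosen after the H4 sequences had been seen, so their presence is a description. They were also in H4c9, the H4 gene that was higher. Capitals mark GGTCCG in the H4 promoters, which are read in the direction of transcription. The coordinates are chr13:23581318-23581617 on the plus strand for H4c4, chr13:23551619-23551918 on the minus strand for H4c6, chr13:23698409-23698708 on the minus strand for H4c3, chr6:136804382-136804681 on the minus strand for H4f16 and chr13:22041313-22041612 on the minus strand for H4c9.
H4c4: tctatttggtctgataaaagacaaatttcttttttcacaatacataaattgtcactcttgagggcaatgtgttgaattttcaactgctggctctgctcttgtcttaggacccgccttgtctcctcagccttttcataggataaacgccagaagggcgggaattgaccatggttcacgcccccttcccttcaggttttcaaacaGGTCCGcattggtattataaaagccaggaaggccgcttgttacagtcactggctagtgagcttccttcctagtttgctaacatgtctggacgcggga
H4c6: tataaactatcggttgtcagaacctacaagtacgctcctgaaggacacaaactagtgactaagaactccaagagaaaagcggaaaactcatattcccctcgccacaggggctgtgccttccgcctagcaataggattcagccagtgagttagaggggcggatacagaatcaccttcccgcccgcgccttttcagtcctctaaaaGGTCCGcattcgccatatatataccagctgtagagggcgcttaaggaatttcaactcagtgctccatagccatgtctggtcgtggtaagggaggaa
H4c3: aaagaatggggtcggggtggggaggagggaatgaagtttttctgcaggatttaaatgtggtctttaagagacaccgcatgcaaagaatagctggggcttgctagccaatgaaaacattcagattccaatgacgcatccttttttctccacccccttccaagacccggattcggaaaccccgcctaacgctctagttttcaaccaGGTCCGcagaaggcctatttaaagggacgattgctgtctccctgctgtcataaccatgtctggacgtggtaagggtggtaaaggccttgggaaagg
H4f16: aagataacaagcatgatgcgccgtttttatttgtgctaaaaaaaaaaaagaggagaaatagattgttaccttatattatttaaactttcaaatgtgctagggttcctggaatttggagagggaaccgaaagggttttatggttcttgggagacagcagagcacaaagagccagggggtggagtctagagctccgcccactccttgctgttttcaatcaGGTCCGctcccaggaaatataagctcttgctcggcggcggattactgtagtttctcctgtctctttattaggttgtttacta
H4c9: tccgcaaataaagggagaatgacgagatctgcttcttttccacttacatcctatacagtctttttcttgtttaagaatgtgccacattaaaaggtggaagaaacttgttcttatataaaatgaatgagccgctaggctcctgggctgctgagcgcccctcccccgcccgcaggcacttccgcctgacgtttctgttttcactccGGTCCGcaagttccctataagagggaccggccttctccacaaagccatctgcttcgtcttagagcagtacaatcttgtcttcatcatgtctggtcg

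The capitals lay 47 bases before the start in H4c4, 46 bases before it in H4c6, H4c3 and H4c9, and 32 bases before it in H4f16. In the promoters of H2B genes the octamer ATTTGCAT, on either strand, is the element long described for that family. It stood in 5 of 8 H2B and 4 of 5 replication-dependent H2A promoters, in 0 of 6 H4 and 0 of 11 variant promoters, and in 1.74% of all windows. The windows of H2ac1 and H2bc1 overlap, as do those of H2ac8 and H2bc8, so these promoters are not independent. Capitals mark the octamer in H2bc14 (chr13:21721794-21722093, plus strand) and H2bc18 (chr3:96269450-96269749, plus strand), where it lay 25 and 48 bases before the start.
H2bc14: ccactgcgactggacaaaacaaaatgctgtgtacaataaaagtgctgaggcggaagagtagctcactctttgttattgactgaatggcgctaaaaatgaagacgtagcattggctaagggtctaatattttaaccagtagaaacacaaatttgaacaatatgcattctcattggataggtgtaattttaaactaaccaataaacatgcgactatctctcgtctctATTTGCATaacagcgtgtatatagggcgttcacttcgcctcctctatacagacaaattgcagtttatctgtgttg
H2bc18: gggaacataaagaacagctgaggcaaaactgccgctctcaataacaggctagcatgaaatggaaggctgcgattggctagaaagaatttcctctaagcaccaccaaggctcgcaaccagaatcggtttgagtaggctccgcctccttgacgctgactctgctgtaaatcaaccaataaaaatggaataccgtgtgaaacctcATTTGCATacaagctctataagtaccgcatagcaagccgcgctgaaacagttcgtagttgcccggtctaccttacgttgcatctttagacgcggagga

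The letters TATAAA were in 16 of 26 replication-dependent promoters and in 0 of 11 variant promoters, against 13.6% of all windows. CCAAT was in 22 of 26 replication-dependent and 7 of 11 variant promoters, against 37.4% of all windows. Both were searched on either strand. A missing match says only that the letters are not in these 300 bases.

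H3c15 (Hist2h3c2), 1 of 3 replication-dependent H3 genes measured on its own, had the largest 24 h difference of the 44 members. Its log2 levels were 5.50, 5.68 and 5.69 in Cebpa-deleted cells, against 6.48, 6.75 and 6.66 in control cells. The groups did not overlap. The log2 difference was -1.01 ± 0.32 (SE, n = 3 each, limma, adjusted p = 0.0158), which is 49.6% of the control level, and the call ended without Cebpa-deleted 24 h replicate 1 (adjusted p = 0.0537). The other two H3 genes, H3c4 and H3c7, had log2 differences of -0.06 and -0.14 and did not pass the test.

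Of 16 replication-dependent H2A and H2B genes, whose products form the dimers on either side of the H3 and H4 tetramer, 4 were lower at 24 h and none was higher. H2bc18 (Hist2h2bb) had log2 levels of 6.78, 6.64 and 7.11 in Cebpa-deleted cells, against 7.47, 7.23 and 7.24 in control cells. The groups did not overlap, and the log2 difference was -0.47 ± 0.18 (adjusted p = 0.0334). H2bc14 (Hist1h2bm) had log2 levels of 6.78, 7.22 and 7.30 in Cebpa-deleted cells, against 7.70, 7.44 and 7.53 in control cells. Again no array overlapped, and the log2 difference was -0.45 ± 0.16 (adjusted p = 0.0296). H2bc1 (Hist1h2ba), which encodes the H2B of the testis, had log2 levels of 5.11, 4.66 and 4.66 in Cebpa-deleted cells, against 5.42, 5.08 and 5.22 in control cells. The groups overlapped by 1 array, and the log2 difference was -0.43 ± 0.13 (adjusted p = 0.0141). H2aw (Hist3h2a) had log2 levels of 7.79, 7.74 and 7.96 in Cebpa-deleted cells, against 8.25, 8.14 and 8.03 in control cells. The arrays did not overlap, and the log2 difference was -0.31 ± 0.11 (adjusted p = 0.0245). A further row, which names H2aw with Trim17, gave -0.19 and did not pass (limma, adjusted p = 0.139 over all rows). Each of these 4 calls ended without control 24 h replicate 1. The calls of H2bc18 and H2aw also ended without Cebpa-deleted 24 h replicate 1 or 2, that of H2bc14 without Cebpa-deleted 24 h replicate 1 or control 24 h replicate 3, and that of H2bc1 without Cebpa-deleted 24 h replicate 2 or 4. The call of H2bc18 ended without control 24 h replicate 3 as well, and that of H2aw without control 24 h replicate 2. The adjusted p values without these arrays reached 0.146 for H2bc18, 0.17 for H2bc14, 0.075 for H2bc1 and 0.101 for H2aw.

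None of the 5 replication-dependent H1 genes, which encode linker histones that bind between nucleosomes, passed the test at 24 h, and 1 had an unadjusted p below 0.05 in limma. H1f1 had log2 levels of 7.67, 7.59 and 7.68 in Cebpa-deleted cells, against 8.32, 7.65 and 7.95 in control cells. The groups overlapped through 1 control array, and the log2 difference of -0.33 had an adjusted p of 0.067. H1f3, H1f5 and H1f6 had log2 differences of 0.17, 0.15 and 0.18, and that of H1f2 was -0.00. The median of the 5 was 0.15.

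Among the variants, H2ax (H2afx) encodes H2A.X, the H2A that is phosphorylated around DNA breaks, and had the largest difference at 24 h. Its log2 levels were 7.41, 7.11 and 7.83 in Cebpa-deleted cells, against 8.14, 8.19 and 8.06 in control cells. All Cebpa-deleted arrays lay below the control arrays. H2ax had a log2 difference of -0.68 ± 0.14 (SE, n = 3 each, limma, adjusted p = 0.00115), which is 62.3% of the control level. H2aj (H2afj) encodes H2A.J, an H2A made outside replication. It had log2 levels of 7.70, 7.82 and 8.05 in Cebpa-deleted cells, against 8.40, 8.43 and 8.32 in control cells. The groups did not overlap, and the log2 difference was -0.52 ± 0.15 (adjusted p = 0.00935). Macroh2a1 (H2afy) encodes an H2A with a large added macrodomain. It had log2 levels of 8.74, 8.78 and 9.04 in Cebpa-deleted cells, against 9.25, 9.22 and 9.21 in control cells. These did not overlap, and the log2 difference was -0.37 ± 0.11 (adjusted p = 0.00914). H2ax, H2aj and Macroh2a1 kept their calls in all 6 fits without 1 array (adjusted p up to 0.0101, 0.048 and 0.0473). In a fit with array range as covariate all 3 calls were lost, and the estimates of H2aj and Macroh2a1 changed sign, to 0.17 and 0.03.

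H2A.Z is encoded by H2az1 (H2afz) and H2az2 (H2afv). H2az2 had log2 levels of 8.45, 8.52 and 8.42 in Cebpa-deleted cells at 24 h, against 8.77, 8.70 and 8.71 in control cells. The arrays did not overlap, and the log2 difference was -0.26 ± 0.10 (limma, adjusted p = 0.0403). It was not called in any of the 6 fits without 1 array (adjusted p 0.0625 to 0.111), and after a second quantile normalization the difference was 0.07. H2az1 had log2 levels of 10.39, 10.24 and 10.71 in Cebpa-deleted cells, against 10.87, 10.79 and 10.48 in control cells. These overlapped, and the log2 difference of -0.27 had an adjusted p of 0.0871. A further H2az1 row gave -0.38, which did not pass either (adjusted p = 0.0604 over all rows). Macroh2a2 (log2 difference 0.20, adjusted p = 0.503) and H1f10 (0.05, adjusted p = 0.656), the genes of macroH2A2 and the linker histone H1.10, did not pass the test.

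H3f3a is 1 of the genes of H3.3, the H3 laid down outside S phase. Its row had log2 levels of 5.55, 5.85 and 5.64 in Cebpa-deleted cells at 24 h, against 5.41, 5.54 and 5.33 in control cells. The lowest Cebpa-deleted array was just above the highest control array. The log2 difference was 0.25 ± 0.10 (limma, adjusted p = 0.0412), and after a second quantile normalization it was -0.02. The 4 rows that name H3f3a together with Gm12657 had log2 differences of -0.11 to -0.08, and none passed (limma, adjusted p 0.306 to 0.466). Their mean log2 level was far above that of the H3f3a row. It was 10.06, 10.09 and 10.24 in Cebpa-deleted and 10.25, 10.27 and 10.16 in control arrays at 24 h. H1f8, known as the linker histone of oocytes, had log2 levels of 5.83, 5.93 and 5.62 in Cebpa-deleted cells, against 5.51, 5.38 and 5.53 in control cells, with a log2 difference of 0.32 ± 0.13 (adjusted p = 0.0458). H2ab1, an H2A known from the testis, had log2 levels of 6.91, 6.80 and 6.79 in Cebpa-deleted cells, against 6.40, 6.54 and 6.66 in control cells, with a log2 difference of 0.30 ± 0.12 (adjusted p = 0.0377). Neither gene's groups overlapped, as in 31.7% of all genes with the Cebpa-deleted arrays above. These 3 calls were lost without control 24 h replicate 1 or Cebpa-deleted 24 h replicate 2. The call of H3f3a was also lost without control 24 h replicate 3, that of H2ab1 without control 24 h replicate 2 or Cebpa-deleted 24 h replicate 1, and that of H1f8 without control 24 h replicate 2 or 3 or Cebpa-deleted 24 h replicate 1 (adjusted p up to 0.209, 0.149 and 0.175 for H3f3a, H2ab1 and H1f8). The remaining variants, H1f7, H2al2a and Macroh2a3, had log2 differences of 0.02, 0.07 and -0.08.

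The direction of the 24 h difference went with the level of the gene on these arrays. Across all 19938 genes, Spearman's rho between the mean log2 level over 18 arrays and the 24 h log2 difference was -0.63. Across the 44 histone genes it was -0.48, across the 31 replication-dependent genes -0.36 and across the 13 variants -0.77. These are descriptions across genes that share arrays. With all genes divided by mean level into 10 bins of equal size, the median log2 difference was 0.21 in the lowest bin and -0.36 in the highest. Set against genes of their own bin, 12 of 31 replication-dependent genes lay below the 10th percentile of the 24 h difference and 1, H2bc9, lay above the 90th percentile. Among the 12, H2ac15, H2ac4, H2ac8, H2bc8, H3c4 and H3c7 did not pass the test, with log2 differences of -0.22 to -0.04. They were in bins 1 to 3 by level, where the 10th percentile was -0.01 to 0.02. Of 13 variants, H2ax and Macroh2a3 lay below the 10th percentile, and Macroh2a3 at -0.08 did not pass the test. H4c4 at -0.83 stood just below the 10th percentile of its bin, -0.81, whereas H4c3 at -0.60 stood further below that of its own, -0.27. H3c15 at -1.01 stood below -0.14, the 10th percentile of its bin. Among the 60% of genes with the highest mean levels, 7 of 17 replication-dependent genes were lower and 0 higher, and 4 of 9 variants were lower and 1 higher, against 43.8% lower and 12.7% higher of all genes there.

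**Figure D3:**
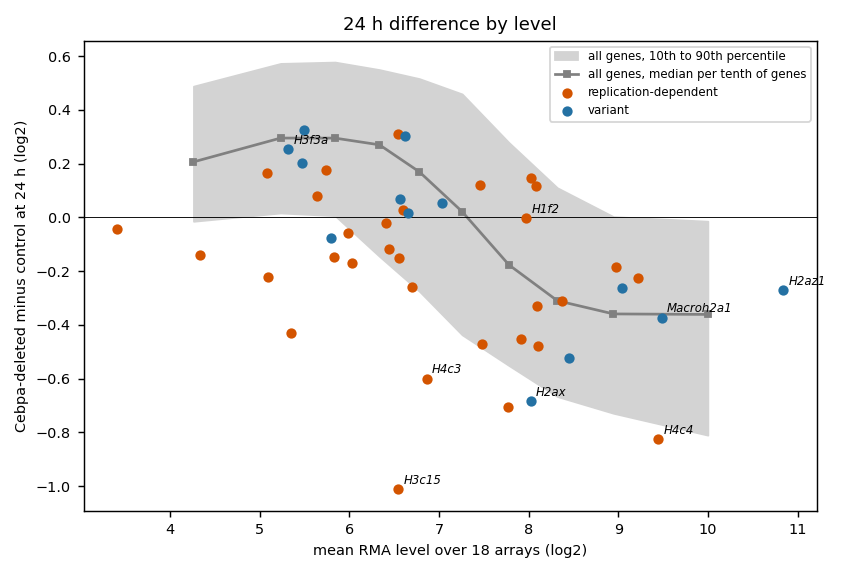
Mean log2 level over 18 arrays (x) against the 24 h log2 difference, Cebpa-deleted minus control (y), for the 44 histone genes, over the 10th to 90th percentile band and the median of all genes in each of 10 bins by level. The band slopes down with level, and 12 of 31 replication-dependent genes lie below the 10th percentile of their bin. Some of these, such as H2ac8 at -0.04, have small differences in bins of low level and did not pass the test.

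Between 2 and 24 h in Cebpa-deleted cells, 10 of 31 replication-dependent histone genes were lower at 24 h and none was higher. The median log2 change of the 31 was -0.31. Of the 7 H4 genes, 5 fell, with a median of -0.57. Over all genes, 19.6% fell and 11.8% rose in this comparison, and the median change was 0.02. Among the 60% of genes of highest mean level, 34.6% fell and 7.26% rose. Of 13 variants, 2 fell (15.4%) and the median was -0.09. In control cells none of the 31 replication-dependent genes passed the test, although 7 had an unadjusted p below 0.05, and their median log2 change was -0.07. There, 4.46% of all genes fell and 7.97% rose, with a median of -0.06, and 3 of 13 variants fell. In a fit with array range as covariate, 6 of the 31 were called in control cells, where 7.77% of all genes fell and 6.19% rose. The count of 10 in Cebpa-deleted cells became 6 without Cebpa-deleted 24 h replicate 2, 6 when the fit held only those 2 groups, 1 without the 2 arrays of narrowest range, which leaves 1 array at 24 h, and 0 in a fit with array range as covariate.

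H4c4 had log2 levels of 8.05, 7.72 and 8.39 in Cebpa-deleted cells at 24 h, against 9.37, 9.19 and 9.13 at 2 h. The times did not overlap, and the log2 change was -1.18 ± 0.14 (SE, n = 3 each, limma, adjusted p = 9.41e-05), so the 24 h level was 44.1% of the 2 h level. In control cells H4c4 was at 8.93, 8.78 and 8.93 at 24 h, against 9.04, 9.12 and 9.44 at 2 h, a log2 change of -0.32 (adjusted p = 0.156). H4c6 had log2 levels of 7.27, 6.46 and 6.88 in Cebpa-deleted cells at 24 h, against 8.30, 7.86 and 7.52 at 2 h. Its log2 change was -1.02 ± 0.21 (adjusted p = 0.00188), to 49.3% of the 2 h level. Both genes kept the call in all 6 fits without 1 array.

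The other H4 genes that fell in Cebpa-deleted cells were H4c3, H4f16 and H4c14. H4c3 had log2 levels of 5.80, 6.10 and 6.49 at 24 h, against 6.91, 7.00 and 6.63 at 2 h, a log2 change of -0.72 (limma, adjusted p = 0.00852). H4f16 had log2 levels of 7.36, 6.99 and 7.62 at 24 h, against 8.18, 7.75 and 7.75 at 2 h, a log2 change of -0.57 (adjusted p = 0.00704). H4c14 had log2 levels of 8.64, 8.28 and 8.63 at 24 h, against 8.91, 8.95 and 9.0 at 2 h, a log2 change of -0.43 (adjusted p = 0.00939). In all 3 genes every 24 h array lay below every 2 h array, as in 20.3% of all genes. The call of H4c3 ended without Cebpa-deleted 24 h replicate 1 and those of H4f16 and H4c14 without Cebpa-deleted 24 h replicate 2 (adjusted p 0.058, 0.0559 and 0.0706). H4c8 and H4c9 had log2 changes of -0.12 and 0.14 and did not pass the test.

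Of the other replication-dependent genes, H1f5, the gene of linker histone H1.5, had log2 levels of 7.73, 7.76 and 7.60 in Cebpa-deleted cells at 24 h, against 8.17, 8.41 and 8.43 at 2 h. The times did not overlap, and the log2 change was -0.64 (limma, adjusted p = 0.0153). H2bc14 had log2 levels of 6.78, 7.22 and 7.30 at 24 h, against 8.02, 7.59 and 7.53 at 2 h, a log2 change of -0.61 (adjusted p = 0.0103). H2bc4 (Hist1h2bc) had log2 levels of 8.48, 8.36 and 8.65 at 24 h, against 9.37, 8.95 and 8.95 at 2 h, a log2 change of -0.59 (adjusted p = 0.00656). Neither H2B gene's times overlapped. H2ac15 (Hist1h2ak) had log2 levels of 5.17, 5.07 and 4.95 at 24 h, against 5.49, 5.42 and 5.65 at 2 h, a log2 change of -0.46 (adjusted p = 0.0167). The testis gene H2bc1 had log2 levels of 5.11, 4.66 and 4.66 at 24 h, against 5.36, 5.28 and 4.99 at 2 h, which overlapped, with a log2 change of -0.40 (adjusted p = 0.0318). H2bc4 kept its call in all 6 fits without 1 array. The call of H1f5 ended without Cebpa-deleted 2 h replicate 3 (adjusted p = 0.0503), that of H2ac15 without Cebpa-deleted 24 h replicate 2 (adjusted p = 0.0545), and that of H2bc14 without Cebpa-deleted 2 h replicate 2 or 24 h replicate 1 (adjusted p up to 0.0711). That of H2bc1 held in 2 of 6 such fits, and ended without Cebpa-deleted 2 h replicate 2 or 3 or 24 h replicate 2 or 4 (adjusted p up to 0.145).

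In control cells the 3 replication-dependent genes of smallest p were H2bc4, H2ac1 and H2bc21. H2bc4 had log2 levels of 8.79, 8.82 and 8.54 at 24 h, against 9.04, 8.89 and 9.53 at 2 h, a log2 change of -0.43 (limma, adjusted p = 0.0603). H2ac1, the testis H2A, had log2 levels of 7.44, 7.39 and 7.33 at 24 h, against 7.55, 7.77 and 7.54 at 2 h, a log2 change of -0.23 (adjusted p = 0.11). H2bc21 had log2 levels of 6.35, 6.27 and 5.91 at 24 h, against 6.24, 6.40 and 7.44 at 2 h, a log2 change of -0.52 (adjusted p = 0.132), and the 2 h value of replicate 3 stood apart from the other two. None of the 3 passed the test.

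Of the variants, Macroh2a1 had log2 levels of 8.74, 8.78 and 9.04 in Cebpa-deleted cells at 24 h, against 9.53, 9.54 and 9.28 at 2 h. The log2 change was -0.60 ± 0.11 (SE, n = 3 each, limma, adjusted p = 0.000889). H2az2 had log2 levels of 8.45, 8.52 and 8.42 in Cebpa-deleted cells at 24 h, against 9.23, 9.0 and 8.91 at 2 h. The log2 change was -0.58 ± 0.10 (adjusted p = 0.000807). Neither gene's times overlapped, and both kept the call in all 6 fits without 1 array. H2az2 fell in control cells as well, where it had log2 levels of 8.77, 8.70 and 8.71 at 24 h, against 9.15, 9.09 and 9.48 at 2 h, a log2 change of -0.51 ± 0.10 (adjusted p = 0.00293) that also held without any 1 array. H2ax, the third variant by p in Cebpa-deleted cells, had log2 levels of 7.41, 7.11 and 7.83 at 24 h, against 7.87, 7.89 and 7.63 at 2 h, a log2 change of -0.35 (adjusted p = 0.0609). In control cells H2ax had log2 levels of 8.14, 8.19 and 8.06 at 24 h, against 7.84, 7.68 and 7.98 at 2 h, a log2 change of 0.30 (adjusted p = 0.161).

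The other variants that fell in control cells were H2al2a, an H2A known from spermatids, and H3f3a. H2al2a had log2 levels of 6.65, 6.58 and 6.53 at 24 h, against 7.16, 6.99 and 6.82 at 2 h, a log2 change of -0.40 (limma, adjusted p = 0.0355). H3f3a had log2 levels of 5.41, 5.54 and 5.33 at 24 h, against 5.80, 5.84 and 5.79 at 2 h, a log2 change of -0.38 (adjusted p = 0.0166). Neither gene's times overlapped, as in 23.2% of all genes with the 24 h arrays below. The call of H2al2a held without control 2 h replicate 3 and ended without any other array of the comparison (adjusted p up to 0.165). That of H3f3a ended without control 2 h replicate 2 or control 24 h replicate 1 or 3 (adjusted p up to 0.0791). The 4 rows naming H3f3a with Gm12657 had log2 changes of -0.26 to -0.23 in control cells. None of these passed (limma, adjusted p 0.0553 to 0.114).

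The difference between genotypes in the change from 2 to 24 h was tested directly as an interaction. Of the replication-dependent genes, H4c4 (log2 difference in change -0.86 ± 0.20, limma, adjusted p = 0.00902) and H4c6 (-0.87 ± 0.29, adjusted p = 0.0337) fell further in Cebpa-deleted cells, which is 2 of 31 against 16.5% of all genes. None of the 31 had a positive difference that passed, against 14.3% of all genes. Of the variants, H2ax had a negative difference (-0.64 ± 0.19, adjusted p = 0.0228), and H1f8 (0.51, adjusted p = 0.0441) and H2ab1 (0.52, adjusted p = 0.0264) had positive differences. Macroh2a1 (-0.40, adjusted p = 0.0512) and H3c15 (-1.01 ± 0.46, adjusted p = 0.0905) did not pass the test. The median difference in change was -0.20 for replication-dependent genes, -0.05 for variants and 0.01 for all genes. These estimates share the 24 h arrays with the genotype difference at 24 h. No replication-dependent gene and no variant was called in a fit with array range as covariate or in one without the 2 Cebpa-deleted 24 h arrays of narrowest range, in which 1 array stands for that group.

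**Figure D4:**
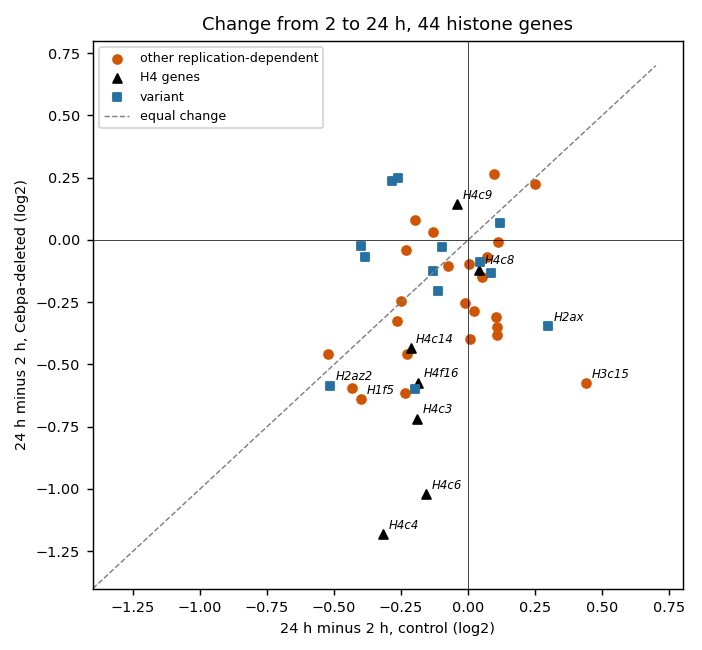
Log2 change from 2 to 24 h in Cebpa-deleted cells (y) against that in control cells (x) for the 44 histone genes; triangles are H4 genes and the dashed line marks equal change. H4c4 at -1.18 and H4c6 at -1.02 lie lowest on the vertical axis, and 6 of 7 H4 genes are beneath the line.

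At 0 h and 2 h few histone genes differed between genotypes, while the endothelial markers were already higher in Cebpa-deleted cells, with 8 of 12 called at 0 h and 11 of 12 at 2 h. Their part in the histone differences was not tested. At 0 h, H3c15 was the 1 called member of 44, against 0.181% of all genes lower and 0.677% higher. Its log2 levels were 6.48, 6.45 and 6.82 in Cebpa-deleted cells, against 7.30, 8.24 and 8.49 in control cells. The groups did not overlap, as in 8.77% of all genes with the Cebpa-deleted arrays below, and the control arrays were further apart than the Cebpa-deleted ones. The log2 difference was -1.42 ± 0.32 (SE, n = 3 each, limma, adjusted p = 0.0398), which is 37.3% of the control level. The call remained in 1 of 6 fits without 1 array, that without control 0 h replicate 1, and reached an adjusted p of 0.2 in the others. H3c7 had log2 levels of 3.78, 4.21 and 4.26 in Cebpa-deleted cells, against 5.09, 4.47 and 4.21 in control cells (log2 difference -0.51, adjusted p = 0.324). H1f1 had log2 levels of 8.18, 8.37 and 8.47 in Cebpa-deleted cells, against 8.54, 8.56 and 8.96 in control cells (log2 difference -0.35, adjusted p = 0.435). Neither passed the test, although the groups did not overlap in H1f1.

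The median log2 difference at 0 h was -0.16 for the 31 replication-dependent genes, of which 23 had an estimate below 0, and -0.02 for the variants and 0.00 for all genes. Per array, the median log2 level of the 31 genes was 6.87 ± 0.05 in Cebpa-deleted and 7.28 ± 0.14 in control arrays (SD, n = 3 each). The middle gene was not the same in every array, so this gap is not the difference of a gene. It was H3c15 at 7.30 in control replicate 1 and H4c8 at 6.84 in Cebpa-deleted replicate 1. No variant was called at 0 h, and 3 of 13 had an unadjusted p below 0.05 in limma. Macroh2a2 had log2 levels of 5.01, 5.64 and 4.65 in Cebpa-deleted cells, against 5.59, 6.22 and 5.86 in control cells (log2 difference -0.79, adjusted p = 0.205). H3f3a had log2 levels of 4.58, 4.88 and 4.77 in Cebpa-deleted cells, against 4.54, 4.59 and 4.38 in control cells (log2 difference 0.24, adjusted p = 0.423). H1f8 had log2 levels of 5.22, 4.79 and 5.20 in Cebpa-deleted cells, against 5.42, 5.43 and 5.20 in control cells (log2 difference -0.28, adjusted p = 0.522). All 3 overlapped between genotypes.

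At 2 h no member was called, against 0.206% of all genes lower and 1.2% higher. Unadjusted p was below 0.05 in limma for 1 replication-dependent gene and 2 variants. H1f2 had log2 levels of 8.43, 8.00 and 7.98 in Cebpa-deleted cells, against 7.63, 7.61 and 7.92 in control cells (log2 difference 0.41, adjusted p = 0.275). H2aj had log2 levels of 8.35, 8.02 and 7.82 in Cebpa-deleted cells, against 8.31, 8.27 and 8.90 in control cells (log2 difference -0.43, adjusted p = 0.219). H2al2a had log2 levels of 6.69, 6.56 and 6.80 in Cebpa-deleted cells, against 7.16, 6.99 and 6.82 in control cells (log2 difference -0.31, adjusted p = 0.305). The genotypes did not overlap in H1f2 or H2al2a, as in 6.95% of all genes with the Cebpa-deleted arrays above and 5.56% with them below, and overlapped in H2aj. Next by p came H1f5 with 8.17, 8.41 and 8.43 in Cebpa-deleted cells, against 7.81, 8.31 and 7.74 in control cells (log2 difference 0.39, adjusted p = 0.459). H2bc8 had log2 levels of 6.02, 6.04 and 6.06 in Cebpa-deleted cells, against 5.86, 5.94 and 5.92 in control cells (log2 difference 0.13, adjusted p = 0.763). H2ab1 had log2 levels of 6.51, 6.57 and 6.72 in Cebpa-deleted cells, against 6.75, 6.79 and 6.92 in control cells (log2 difference -0.22, adjusted p = 0.52). The genotypes also did not overlap in H2bc8, with the Cebpa-deleted arrays above, or in H2ab1, with them below. The median log2 difference was 0.00 for replication-dependent genes, -0.05 for variants and -0.02 for all genes.

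**Figure D5:**
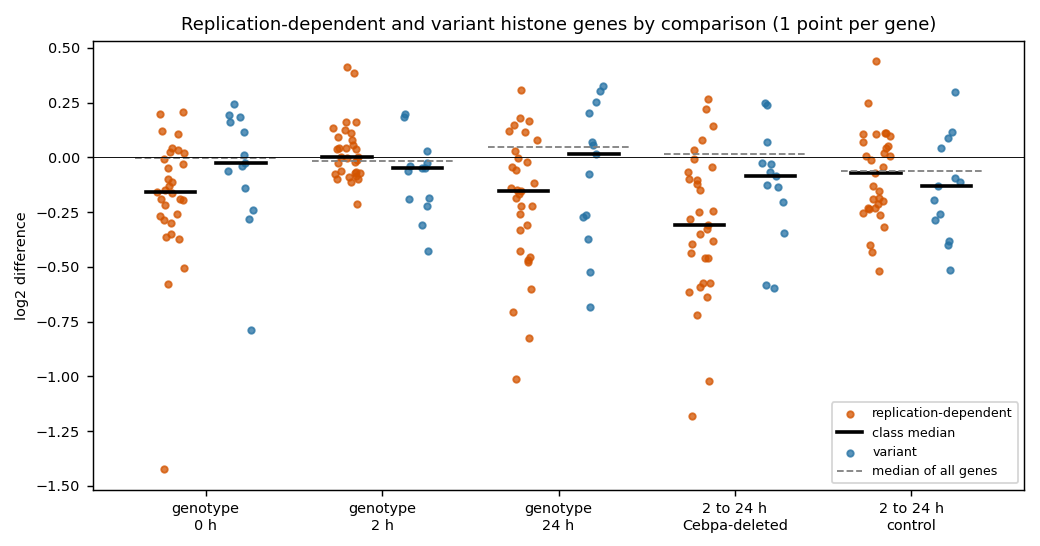
Log2 difference or change of each gene by class (replication-dependent, variants) in the genotype differences at 0, 2 and 24 h and the changes from 2 to 24 h in each genotype, with the class median as a bar and the median of all genes as a dashed line. The replication-dependent median is -0.15 for the genotype difference at 24 h, -0.31 for the change in Cebpa-deleted cells and -0.07 for that in control cells.

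From 0 h to the later times more replication-dependent genes fell than rose in both genotypes, and these changes cannot be told apart from the wider range of the 6 arrays at 0 h. In Cebpa-deleted cells 12 of 31 fell and 3 rose by 2 h, with a median log2 change of -0.29, against 36.2% of all genes falling and 26.9% rising. In control cells 19 fell and 3 rose by 2 h, with a median of -0.47, against 39.4% and 30.7% of all genes. By 24 h, 22 fell and 3 rose in Cebpa-deleted cells (median -0.59, against 41.5% and 36% of all genes), and 20 fell and 1 rose in control cells (median -0.64, against 34.6% and 25.3%). H4c4 stood at 10.39, 10.60 and 10.80 in Cebpa-deleted cells at 0 h and at 10.65, 10.74 and 10.75 in control cells at 0 h. By 24 h its log2 change was -2.55 in Cebpa-deleted cells and -1.83 in control cells, which left 17.1% and 28.1% of the 0 h level. H2ac15 fell by 2 h in both genotypes, with log2 changes of -1.27 in Cebpa-deleted and -1.54 in control cells. H2bc22 rose by 2 h, with log2 changes of 1.12 in Cebpa-deleted and 0.90 in control cells. Variants were more evenly divided, with 5 falling and 5 rising in Cebpa-deleted cells and 5 falling and 4 rising in control cells by 24 h. From 0 to 24 h the genotype difference in change passed for H4c4, H2ax, H2az2 and H1f8, in a comparison where 8.88% of all genes had a negative and 5.46% a positive difference. In the change from 0 to 2 h, 0 of all 19938 genes differed between genotypes at an adjusted p below 0.05 in limma. With no gene called, this comparison cannot show whether the 44 histone genes differed from other genes. Of the 44, 6 had an unadjusted p below 0.05 in limma, and the share of all genes at that level is not given here.

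The machinery that makes and ends histone messenger RNAs was measured by 26 genes of histone messenger RNA processing and transcription. At 24 h 10 of them were lower in Cebpa-deleted cells and none was higher, with a median log2 difference of -0.18, against 26.4% lower and 24.3% higher of all genes and 43.8% lower and 12.7% higher among the 60% of highest level. Slbp, whose product binds the stem-loop of replication-dependent histone messenger RNA, averaged 8.15 ± 0.24 in Cebpa-deleted and 8.78 ± 0.21 in control cells (SD, n = 3 each; log2 difference -0.63, limma, adjusted p = 0.000946). Npat, the coactivator of histone gene clusters in S phase, averaged 6.98 ± 0.10 in Cebpa-deleted and 7.51 ± 0.04 in control cells (log2 difference -0.53, adjusted p = 0.000654). Hinfp, the zinc finger factor known to bind H4 promoters, averaged 7.04 ± 0.04 in Cebpa-deleted and 7.57 ± 0.14 in control cells (log2 difference -0.53, adjusted p = 0.0015). Cpsf3, the nuclease that cuts histone and other messenger RNA ends, had a log2 difference of -0.58 (adjusted p = 0.00194). The groups did not overlap in these 4 genes. Between 2 and 24 h Hinfp rose by 0.76 and Npat by 0.46 on the log2 scale in control cells (adjusted p = 0.0002 and 0.00423), against 0.04 and -0.16 in Cebpa-deleted cells, where neither passed. The genotype difference in that change was -0.72 for Hinfp and -0.62 for Npat (adjusted p = 0.00682 and 0.00733). Slbp changed by -0.16 in Cebpa-deleted and 0.29 in control cells, neither of which passed the test, and the genotype difference in change did not pass either (-0.45, adjusted p = 0.0543).

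Of 23 histone chaperones and assembly factors, 10 were lower and 1 higher at 24 h, with a median log2 difference of -0.23, set against the same shares of all genes (26.4% lower and 24.3% higher, or 43.8% and 12.7% at the higher levels). Nasp, a chaperone of H1 and of H3 with H4, had a log2 difference of -0.64 (limma, adjusted p = 0.0132). Asf1a, which hands H3 and H4 to the assembly factors, had -0.57 (adjusted p = 0.00469), and Ubn1, a subunit of the HIRA complex that deposits H3.3, had -0.58 (adjusted p = 0.000534). Anp32e, the chaperone that removes H2A.Z, had -0.51 (adjusted p = 0.00202). Set was the chaperone that was higher, with 0.41 (adjusted p = 0.034).

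Of 33 genes of DNA replication and proliferation, 3 were lower and 6 higher at 24 h, with a median log2 difference of 0.05, against 26.4% lower and 24.3% higher of all genes. Those lower were the mitotic checkpoint kinase gene Bub1 (-1.32, limma, adjusted p = 0.00118), the replication clamp gene Pcna (-0.56, adjusted p = 0.00463) and the ribonucleotide reductase gene Rrm1 (-0.37, adjusted p = 0.0166). Bub1 averaged 5.93 ± 0.26 in Cebpa-deleted and 7.25 ± 0.30 in control cells (SD, n = 3 each). The 6 that were higher included Ube2c (0.44), Plk1 (0.42), Tk1 (0.40) and Aurkb (0.40), which are known from the S phase or mitosis of dividing cells. At 0 and 2 h no gene of these 3 lists was called between genotypes, and only 0.858% and 1.4% of all genes were. Unadjusted p was below 0.05 in limma for 1 gene of messenger RNA processing, 0 chaperones and 1 replication gene at 0 h. At 2 h it was so for 1, 2 and 6. Over the hours from 2 to 24 in Cebpa-deleted cells, 5 messenger RNA processing genes fell and 1 rose, 7 chaperones fell and 3 rose, and 5 replication genes fell and 1 rose, against 19.6% of all genes falling and 11.8% rising. In control cells the counts over the same hours were 0 and 4, 1 and 6, and 2 and 1, against 4.46% of all genes falling and 7.97% rising.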

How the data were processed

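Type II cell RNA was prepared with GITC, biotin labelled by Affymetrix protocols and hybridized to 18 arrays, per the labels' protocols. The deposited values are log2 levels that the authors made with RMA, per the submitters' processing notes. Not given in the sources used here are the RMA version, which arrays were normalized as 1 set, the build and any filtering. Of 35557 rows, 21789 named 1 gene, 1621 named several and 12147 named none, and 21698 of those naming 1 gene matched the RefSeq gene table by Entrez identifier.

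Genes were fitted in limma 3.58.1 (R 4.3.3) with lmFit and eBayes over all 6 groups of 3 arrays, and p-values were adjusted by Benjamini-Hochberg over 19938 genes at a threshold of 0.05. No filter on low values was set, so all 44 members were tested. Summaries, promoter searches and plots used Python 3.11.15, pandas 2.3.3 and matplotlib 3.10.9. The code was tested on simulated data. Of the members, 36 were found by current symbol and 8 by older name, and 6 matches that are no histone genes (H13, Cxcl11, Hspb8, Nckap1, Olfr62 and Phactr3) were left out. A further 33 rows that name several histone genes were fitted apart.

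The members and the lists were chosen with earlier results of these data known. The text names, in each main comparison, the called members of largest change (up to 10 replication-dependent, up to 6 variants), the 3 of smallest p in a class with under 3 called, and always H2ax, H2az1, H2az2, Macroh2a1, Macroh2a2, H3f3a and H1f10. The lists were histone messenger RNA processing, chaperones, DNA replication, and markers of 9 cell types. Of the markers, at 24 h 8 of 11 lymphocyte, 5 of 8 fibroblast and 3 of 5 airway secretory genes were higher in Cebpa-deleted cells. Lower were 5 of 7 type I genes. Of 9 macrophage genes 3 were higher and 2 lower, 1 of 5 neutrophil genes was higher, and 0 of 3 erythroid genes were called. The shares over all genes were 24.3% higher and 26.4% lower. The alternatives were a second quantile normalization, centring on array medians, eBayes with trend and robust settings, the upper 60% of genes, the mean of a gene's rows, only the groups compared, the array range as a covariate, a replicate block and each array left out. Added after seeing the data were the fit without the 2 narrowest Cebpa-deleted 24 h arrays and the counts without germ cell genes. The labels name no batch. The main fit used no pairing by replicate number. Correlations of same-numbered deviations from the group means were -0.04, 0.00 and 0.04 at 0 h, -0.24 and -0.22 at 2 h, and 0.05 and 0.06 at 24 h. With 3 arrays per group, these few values cannot decide whether samples were paired. The number of arrays limits the precision.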

Additional observations from a re-analysis of the deposited data

Results flagged for a closer look

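Each of the results below had a change over time that differed between Cebpa-deleted and control cells by an interaction test in limma at an adjusted p below 0.05. From 2 to 24 h the log2 difference in change, Cebpa-deleted minus control, was -0.86 for H4c4, -0.87 for H4c6, -0.64 for H2ax, 0.51 for H1f8 and 0.52 for H2ab1. From 0 to 24 h it was -0.71 for H4c4, -0.64 for H2ax, -0.46 for H2az2 and 0.60 for H1f8, in a comparison where 8.88% of all genes had a negative and 5.46% a positive difference that passed. From 2 to 24 h, 16.5% of all genes had a negative and 14.3% a positive difference that passed. The 2 sets share the 24 h arrays, and the second also rests on the 0 h arrays of wider range. In a fit with array range as covariate, 0 of all 19938 genes passed from 2 to 24 h. From 0 to 24 h, 1 passed with a negative difference in that fit. Groups of 3 arrays were not tested for outlying samples.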

How the results depend on the processing

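With the array range as a covariate, 3 of 33 called histone gene results kept their call, 19 did not pass and 11 changed sign. At 24 h the changed log2 differences were 0.0265 for H3c15, 0.23 for H4c3, 0.12 for H4f16, 0.24 for H2bc18, 0.25 for H2bc14, 0.0747 for H2aw, -0.0074 for H4c9, 0.17 for H2aj, 0.0332 for Macroh2a1, -0.17 for H1f8 and 0.0241 for H2az2. A second quantile normalization kept 21 of 33 and turned H2az2 (0.0711) and H3f3a (-0.0243) at 24 h. Of the 33, 29 kept their call after centring, 30 with trend and robust settings, 33 with the mean of a gene's rows, 26 with only the groups compared, and 24 of 24 in the upper 60% of genes, where 17 of 31 replication-dependent genes and 9 of 13 variants were tested. Without the 2 narrowest arrays 1 of 29 did. That fit leaves 1 Cebpa-deleted 24 h array, which is assumed to vary like the other groups, so range and lost replication cannot be told apart in it. The cause of the other shifts was not tested.

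Counts of called replication-dependent genes moved as follows. At 0 h the 1 became 0 with the second quantile normalization, with trend and robust settings and with only the groups compared, and 0 in the upper 60% of genes, where H3c15 was not tested. At 24 h the 10 became 0 with the range covariate and 0 without the 2 narrowest arrays. From 2 to 24 h in Cebpa-deleted cells the 10 became 0 with the covariate, 6 with only the groups compared and 1 without the narrowest arrays, and in control cells the 0 became 2 after the second quantile normalization, 1 in the upper 60% and 6 with the covariate. For the genotype difference in that change the 2 became 5 after the second quantile normalization, 0 with the covariate and 0 without the narrowest arrays. From 0 h the counts became 9 and 13 by 2 h and 15 and 13 by 24 h in the upper 60% (Cebpa-deleted, then control), and 2 and 1 by 2 h and 0 and 7 by 24 h with the covariate.

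Counts of called variants became 1 at 2 h with the covariate, and at 24 h 2 after the second quantile normalization, 0 with the covariate and 0 without the narrowest arrays. From 2 to 24 h in Cebpa-deleted cells they became 0 with the covariate and 0 without the narrowest arrays. For the genotype difference in change the 3 became 0 after the second quantile normalization, with the covariate and without the narrowest arrays. From 0 h, by 2 h they became 5 in each genotype after the second quantile normalization and 1 in each with the covariate, and by 24 h 0 with the covariate in Cebpa-deleted cells and, in control cells, 5 and 1.

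Median log2 differences at 24 h were -0.29 (second quantile normalization), -0.26 (upper 60%) and -0.0034 (covariate) for replication-dependent genes, and -0.26 (upper 60%) and -0.16 (without the narrowest arrays) for variants. Medians of the change from 2 to 24 h were -0.43 (upper 60%) and -0.11 (covariate) in Cebpa-deleted cells and -0.19 and -0.18 in control cells for replication-dependent genes.

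With 1 array left out, replication-dependent counts ran from 0 to 1 at 0 h, from 4 to 10 at 24 h (4 without control 24 h replicate 1 or Cebpa-deleted 24 h replicate 2, 5 without Cebpa-deleted 24 h replicate 1), from 6 to 11 for the change in Cebpa-deleted cells, from 0 to 1 in control cells and from 1 to 5 for the genotype difference in change. Variant counts ran from 0 to 1 at 2 h, from 3 to 7 at 24 h, from 1 to 3 for the change in control cells and from 0 to 5 for the genotype difference in change.

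Whether equal replicate numbers mark paired samples is not known. The fit with the replicate block called 8 replication-dependent genes and 3 variants at 24 h. It also called 9 replication-dependent genes from 2 to 24 h in Cebpa-deleted cells and 1 variant for the genotype difference in change. It kept 26 of 33 called histone gene results.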

Other observations

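Rows that name several histone genes carry the family's summed signal and share probes, so they are not independent. Other rows name 1 histone gene beside a gene without a histone name (H3f3a with Gm12657, H3f3b with Gm6485 and H2aw with Trim17). Neither kind enters a count of genes. Both kinds were fitted over all 35557 rows, of which 19.3% were lower and 22.3% higher in Cebpa-deleted cells at 24 h. All 5 rows naming only H4 genes were lower at 24 h, with log2 differences of -0.62 to -0.57 (limma, adjusted p below 0.05). Their mean log2 level was 9.16, 8.88 and 9.35 in Cebpa-deleted arrays, against 9.82, 9.59 and 9.77 in control arrays at 24 h, which did not overlap. From 2 to 24 h in Cebpa-deleted cells all 5 fell, with log2 changes of -0.93 to -0.85, and none passed in control cells. The row naming H4c11 and H4c17 had log2 levels of 5.58, 5.42 and 5.07 in Cebpa-deleted cells at 24 h, against 6.80, 6.41 and 6.51 in control cells, a log2 difference of -1.22 (adjusted p = 0.000618).

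None of the 10 rows naming H3 genes was called between genotypes at 24 h, whereas all 10 fell from 2 to 24 h in Cebpa-deleted cells (-0.71 to -0.61) and none passed in control cells. Of 7 rows naming H2B genes, 4 were lower at 24 h, 7 fell from 2 to 24 h in Cebpa-deleted cells (-0.92 to -0.49) and 3 fell in control cells. Both rows naming H2A genes were lower at 24 h and fell in Cebpa-deleted cells, and 1 fell in control cells. The row naming H2bc6 and H1f4 fell in Cebpa-deleted cells (-0.67) and in control cells (-0.35). The 4 rows naming H3f3a with Gm12657 fell from 2 to 24 h in Cebpa-deleted cells (-0.43 to -0.35), where the row that names H3f3a alone had a log2 change of -0.07 and did not pass the test. From 0 to 2 h these 4 rows fell in Cebpa-deleted (-0.60 to -0.44) and control cells (-0.50 to -0.32). The row of H3f3a alone went the other way, from a mean of 4.74 to 5.75 in Cebpa-deleted and from 4.50 to 5.81 in control cells. The 2 rows naming H3f3b with Gm6485 were lower at 24 h (-0.39 and -0.28). From 2 to 24 h, 13.4% of all rows fell in Cebpa-deleted cells and 5.83% in control cells.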
